A study of Mus musculus with 8 samples.

Results

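Multipotent progenitors (MPP) from mouse bone marrow were compared between Tet1 knockout (KO) and wild type (WT). The comparison used the 4 MPP libraries, 2 KO and 2 WT, of the 8 libraries in the series, and every gene in the deposited MPP count table. The other 4 libraries are long-term hematopoietic stem cells (LT-HSC) of the same 2 genotypes, and they are used here only to show where the KO effect in MPP differed. All mice carry the strain label CD57BL/6 and were sampled 20 weeks after a transplant of WT or Tet1 KO marrow, with an age of 6 months in the labels. MPP were flow sorted directly from marrow, RNA was isolated from 100000 cells, and poly(A) RNA was read as 50 bp pairs. The labels name no other treatment. The deleted part of Tet1, whether the deletion is confined to blood cells, the sort gates, the sex of donors and recipients, and the share of cells left from the host are not stated in any source used here. Whether the 2 libraries of a group came from separate animals is not labelled, and the p-values describe the spread of these samples alone, which may be technical.

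MPP are the dividing descendants of the stem cell that feed the lymphoid, myeloid and erythroid branches of blood formation, and they do not renew themselves for long. Tet1 encodes a dioxygenase that oxidises 5-methylcytosine, a step towards the removal of DNA methylation, and it is best known from embryonic stem cells. Antibody-secreting cells are the end of the B cell branch. They are formed under the transcription factors Prdm1, Irf4 and Xbp1, and they widen the endoplasmic reticulum (ER) to fold, check and export immunoglobulin. The ER chaperones, translocation factors and degradation factors involved are switched on through the unfolded protein response, in which Xbp1 and Atf6 bind promoter elements of their target genes.

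Tet1 itself came first (chromosome 10, 62267318 to 62361866 on mm9, ENSMUSG00000047146). Its counts were 1207 and 1323 in the WT libraries and 765 and 855 in the KO libraries. Both KO libraries lay below both WT libraries, and the residual counts show that transcripts of the gene were still read in the KO. The log2 fold change of KO over WT was -0.62 (SE 0.09, adjusted p = 0.0282), a fall of 1.54-fold. The deleted exons are not stated, so counts that span all exons test the genotype labels only weakly. The related dioxygenases Tet2 (log2 fold change 0.28, SE 0.09, adjusted p = 0.141) and Tet3 (0.08, SE 0.07, adjusted p = 0.525) did not pass the threshold. Tet1 was the only one of 21 tested genes of DNA methylation and demethylation that passed.

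Total counts ran from 11928659 to 12504581 per library, and levels are given as CPM, the count scaled to a fixed library total. For a gene with a count of 0 the upper limit was between 0.24 and 0.251 CPM (3 counts), which covers counting error only. All 4 Y-linked genes tested were far lower in KO. Kdm5d, which encodes a histone demethylase, was read 310 and 282 times in WT and 0 times in both KO libraries, and Ddx3y, an RNA helicase gene, had 931 and 1002 counts in WT against 19 and 57 in KO. The sex of the mice is not given, so sex and genotype cannot be told apart in any result here. The calls also rested on having both WT libraries. Without WT replicate 1, or without WT replicate 2, edgeR called 0 genes (1230 higher and 889 lower, and 1362 higher and 858 lower, at an unadjusted p under 0.05), while without KO replicate 1 or 2 it called 213 higher and 55 lower, or 201 higher and 46 lower. Most counts for the lists that follow shrank too.

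Of 14902 genes tested, 1073 (7.2%) differed between the genotypes at an adjusted p under 0.05, with 707 higher (4.74%) and 366 lower (2.46%) in KO. Outside the immunoglobulin loci, 941 of 14674 genes were called (6.41%), of which 601 were higher (4.1%) and 340 lower (2.32%). With scaling by library size alone the split outside these loci was 505 higher and 616 lower, and that scaling moves the median log2 fold change of all genes from -0.01 to -0.08. Most of these changes were under 4-fold. The higher genes had a median fold of 1.98, with 291 of 601 above 2-fold and 70 above 4-fold. The lower genes had a median fold of 1.74, with 136 of 340 above 2-fold and 58 above 4-fold. The biological coefficient of variation between replicates was 0.107.

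**Figure D1:**
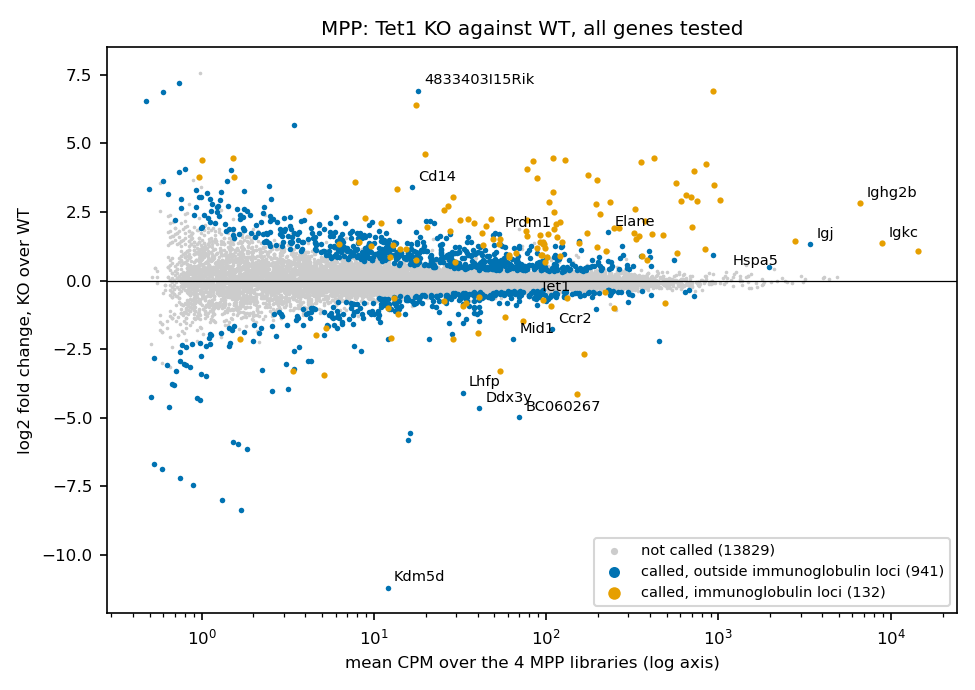
Each point is 1 of 14902 tested genes, by its mean CPM over the 4 MPP libraries (log axis) and its log2 fold change of KO over WT. The immunoglobulin genes called (132, orange) are mostly abundant and above 0, whereas the 941 called genes outside those loci (blue) lie on both sides of 0.

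Genes of antibody-secreting cells were higher in KO. Of 17 tested members of this list, 15 rose and 0 fell, with a median log2 fold change of 0.97 beside -0.01 for all genes tested, and in all 17 both KO libraries lay above both WT libraries (27.7% of all tested genes did so). Summed over the list, the level was 3349 and 3857 CPM in WT and 7086 and 8939 CPM in KO. The largest part of each sum was a single gene, Igj, whose levels are given below. In bulk RNA, more cells of a type and more RNA per cell cannot be told apart. Without KO replicate 1 or 2, 10 or 9 members were called higher, and without either WT replicate 0 were, while the median stayed between 0.92 and 1.01.

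The regulators of the antibody-secreting state were part of this rise. Prdm1, the repressor that ends the B cell programme, stood at 24.6 and 25 CPM in WT and 79.9 and 82.6 CPM in KO, a rise of 3.27-fold (log2 fold change 1.71, SE 0.08, adjusted p = 0.00139). Xbp1, the transcription factor of the unfolded protein response, stood at 188 and 193 CPM in WT and 350.2 and 382 CPM in KO (log2 fold change 0.94, SE 0.08, adjusted p = 0.00648). Replicates of each genotype were close and the genotypes did not overlap. Irf4, which acts upstream of Prdm1, rose by 1.6-fold (SE of the log2 value 0.07, adjusted p = 0.0125), and Ell2, the elongation factor that favours the secreted form of the heavy chain, rose by 2.36-fold (SE 0.07, adjusted p = 0.00219). Creb3l2, an ER-bound transcription factor, rose by 1.96-fold (SE 0.07, adjusted p = 0.00502).

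Surface markers and secreted products moved the same way. Sdc1, the plasma cell marker CD138, stood at 36.1 and 32.4 CPM in WT and 86.9 and 74.5 CPM in KO (log2 fold change 1.24, SE 0.11, adjusted p = 0.00885). Slamf7, another surface receptor of plasma cells, stood at 38.7 and 42.5 CPM in WT and 95.4 and 101 CPM in KO (log2 fold change 1.27, SE 0.08, adjusted p = 0.00403). The joining chain gene Igj, which links IgM and IgA into polymers and lies outside the immunoglobulin loci, stood at 1679 and 2198 CPM in WT and 3972 and 5811 CPM in KO (log2 fold change 1.34, SE 0.22, adjusted p = 0.035). Tnfrsf17, the survival receptor BCMA, was low in all libraries, at 4 and 4.22 CPM in WT and 7.13 and 7.32 CPM in KO (adjusted p = 0.0495). The 2 members that did not pass were Cd28, at 0.86 on the log2 scale (SE 0.17, adjusted p = 0.0521), and the kinase gene Pim2, with 0.17 (SE 0.08, adjusted p = 0.251).

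**Figure D2:**
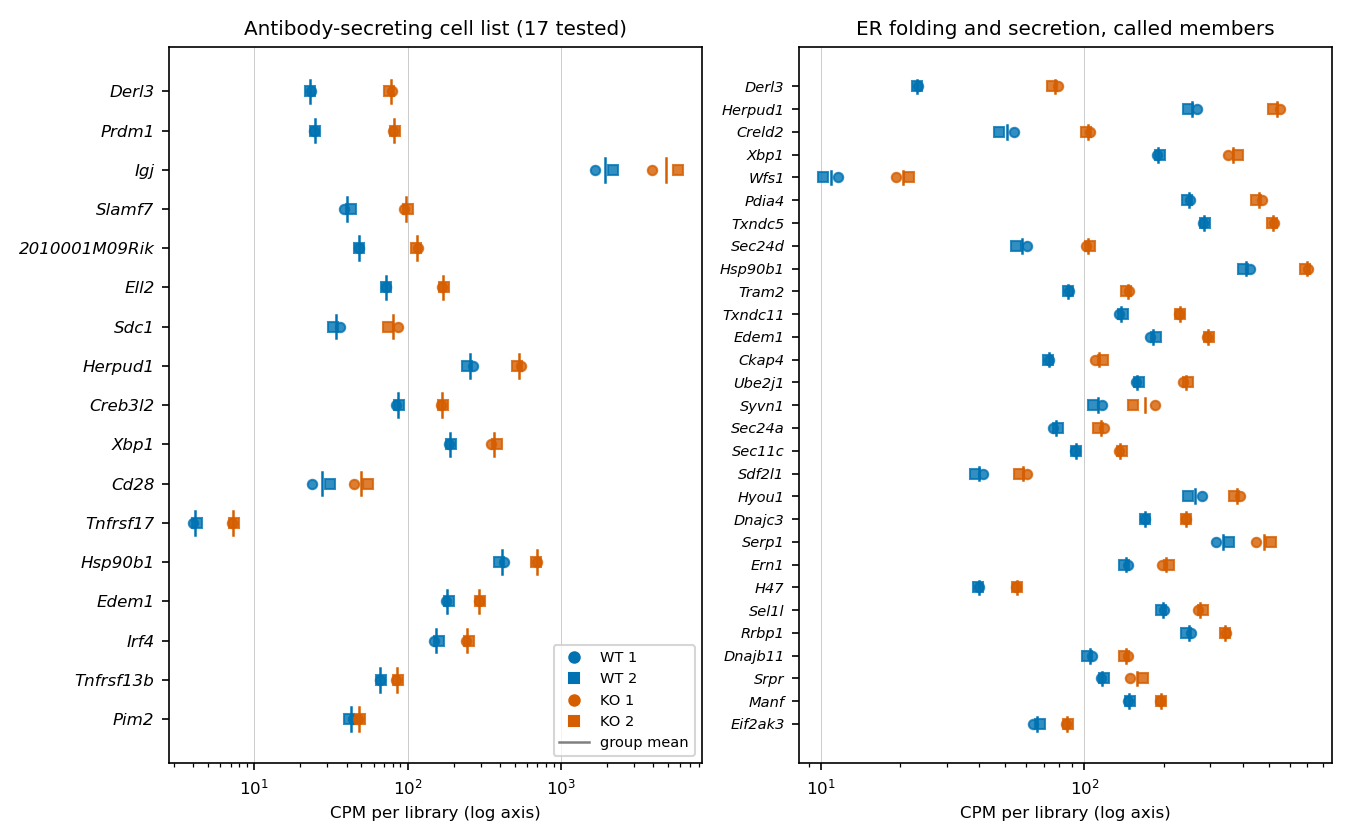
CPM per library (log axis) of the 17 tested genes of the antibody-secreting cell list (left) and of the 29 called genes of the ER folding and secretion list (right). Blue marks WT and orange KO, circles replicate 1 and squares replicate 2, and vertical ticks the group means. In every gene shown both KO libraries lie above both WT libraries, with Derl3 and Prdm1 furthest apart.

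The wider machinery of protein folding and export was examined with a list of 75 genes put together after these values had been seen. Of the 75, 29 rose and 0 fell, and the median log2 fold change was 0.28. Without KO replicate 1 or 2 the count was 9 or 7, and without either WT replicate 0. The list shares 5 genes with the antibody-secreting list (Xbp1, Derl3, Herpud1, Hsp90b1 and Edem1). The degradation arm, which pulls misfolded proteins out of the ER, held the largest rise. Derl3, a channel component made mainly in secretory cells, stood at 23.3 and 23.1 CPM in WT and 79.3 and 75.6 CPM in KO, a rise of 3.33-fold (log2 fold change 1.74, SE 0.08, adjusted p = 0.00139). Herpud1, which assembles the degradation complex, stood at 267 and 246 CPM in WT and 553 and 521 CPM in KO (log2 fold change 1.07, SE 0.08, adjusted p = 0.00525). The ubiquitin ligase gene Syvn1 and its partner Sel1l rose by less, with log2 fold changes of 0.59 (SE 0.11, adjusted p = 0.0466) and 0.47 (SE 0.07, adjusted p = 0.0235).

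Among folding factors, Creld2, a disulfide isomerase, stood at 54.2 and 47.4 CPM in WT and 105 and 101 CPM in KO (log2 fold change 1.02, SE 0.09, adjusted p = 0.00834). Pdia4 and Txndc5, which also form disulfide bonds, had log2 fold changes of 0.89 (SE 0.07, adjusted p = 0.00602) and 0.87 (SE 0.06, adjusted p = 0.00526). Hsp90b1, the ER form of the HSP90 chaperone, stood at 424 and 398 CPM in WT and 703 and 687 CPM in KO (log2 fold change 0.76, SE 0.07, adjusted p = 0.00929). Hyou1 and Sdf2l1, which work with the chaperone BiP, had log2 fold changes of 0.53 (SE 0.09, adjusted p = 0.0328) and 0.55 (SE 0.08, adjusted p = 0.0282). The 29 called members ranged from 0.38 for Eif2ak3 to 1.74 for Derl3. The most abundant chaperones did not pass edgeR's quasi-likelihood test. Hspa5, the central ER chaperone BiP, stood at 982 and 989.5 CPM in WT and 1219 and 1250.02 CPM in KO (log2 fold change 0.32, SE 0.07, adjusted p = 0.0532). DESeq2 (adjusted p = 0.0218) and edgeR's likelihood ratio test (adjusted p = 0.0494) called it higher. The lectin chaperones Calr and Canx had log2 fold changes of 0.13 (SE 0.07, adjusted p = 0.332) and -0.02 (SE 0.07, adjusted p = 0.89).

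The sensors of the unfolded protein response were also read. Ern1, the sensor that splices Xbp1 mRNA, rose by 1.41-fold (SE of the log2 value 0.07, adjusted p = 0.023), and Eif2ak3, the kinase PERK, rose by 1.3-fold (SE 0.07, adjusted p = 0.0473), a call lost with DESeq2 (adjusted p = 0.0996), with library size alone, without the filter, with immunoglobulin genes removed and in the fit on all 8 libraries. Atf6, the third sensor, stood at 0.15 on the log2 scale (SE 0.08, adjusted p = 0.297). Of the genes downstream of PERK, Atf4 stood at -0.10 (SE 0.08, adjusted p = 0.493) and Ddit3, a factor of ER stress-induced death, at -0.27 (SE 0.11, adjusted p = 0.214). Unspliced and spliced Xbp1 mRNA cannot be separated in gene counts. Several of these genes overlap another gene model (Herpud1, Hsp90b1, Syvn1, Txndc5 and Ddit3 among them), and since the use of strand in counting is not stated, reads from such pairs cannot be told apart.

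Promoter sequences of the ER list were read because the best-known element of this response, the ER stress response element, has fixed letters. RefSeq windows of 300 bases, from 250 before to 50 after the annotated start on GRCm38.p6, were found for 63 of the 75 genes. The element was searched as CCAAT, any 9 bases, then CCACG, on both strands, and 35 of all 27025 windows (0.13%) held it. Of the ER list 10 of 63 did, namely 5 of the 26 called members with a window and 5 of the 37 members with a window that were not called (Hspa5, Calr, Canx, Pdia6 and Ero1lb). The 5 called members are printed, with Hspa5 for comparison, 5′ to 3′ on the strand of the gene. Capitals mark the match, and a match on the opposite strand reads CGTGG, 9 bases, ATTGG. The windows are Derl3 (chr10:75893148-75893447, plus strand), Creld2 (chr15:88819396-88819695, plus strand), Dnajc3, an inhibitor of PERK (chr14:118937682-118937981, plus strand), Hsp90b1 (chr10:86705395-86705694, minus strand), Syvn1 (chr19:6046326-6046625, plus strand) and Hspa5 (chr2:34771840-34772139, plus strand).
Derl3: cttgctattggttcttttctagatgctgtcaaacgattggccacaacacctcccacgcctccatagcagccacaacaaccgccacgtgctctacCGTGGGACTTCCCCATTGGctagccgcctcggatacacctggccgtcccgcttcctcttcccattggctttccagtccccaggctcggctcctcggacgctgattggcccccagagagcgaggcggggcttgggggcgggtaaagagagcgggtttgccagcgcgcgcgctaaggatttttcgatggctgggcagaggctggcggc
Creld2: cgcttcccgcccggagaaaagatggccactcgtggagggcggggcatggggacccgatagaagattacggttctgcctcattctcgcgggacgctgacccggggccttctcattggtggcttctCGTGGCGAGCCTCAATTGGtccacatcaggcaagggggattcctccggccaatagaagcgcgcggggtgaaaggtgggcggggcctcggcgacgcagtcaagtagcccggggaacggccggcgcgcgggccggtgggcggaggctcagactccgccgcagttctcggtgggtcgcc
Dnajc3: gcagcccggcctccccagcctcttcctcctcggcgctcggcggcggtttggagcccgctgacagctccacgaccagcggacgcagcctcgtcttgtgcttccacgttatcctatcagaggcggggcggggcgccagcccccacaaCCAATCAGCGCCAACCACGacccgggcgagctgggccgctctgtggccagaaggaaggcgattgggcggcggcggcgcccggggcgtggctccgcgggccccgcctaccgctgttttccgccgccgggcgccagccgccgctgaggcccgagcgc
Hsp90b1: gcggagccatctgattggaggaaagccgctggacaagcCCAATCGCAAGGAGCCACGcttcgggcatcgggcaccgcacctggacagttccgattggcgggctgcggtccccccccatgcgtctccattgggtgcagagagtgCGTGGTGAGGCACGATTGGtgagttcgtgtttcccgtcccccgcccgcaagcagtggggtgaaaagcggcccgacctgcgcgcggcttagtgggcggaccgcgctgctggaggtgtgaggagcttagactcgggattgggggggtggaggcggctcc
Syvn1: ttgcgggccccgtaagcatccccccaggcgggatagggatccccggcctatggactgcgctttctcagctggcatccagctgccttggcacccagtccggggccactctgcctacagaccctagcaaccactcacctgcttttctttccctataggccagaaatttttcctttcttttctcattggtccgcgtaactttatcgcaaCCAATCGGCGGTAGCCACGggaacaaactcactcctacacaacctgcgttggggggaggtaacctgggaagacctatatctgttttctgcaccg
Hspa5: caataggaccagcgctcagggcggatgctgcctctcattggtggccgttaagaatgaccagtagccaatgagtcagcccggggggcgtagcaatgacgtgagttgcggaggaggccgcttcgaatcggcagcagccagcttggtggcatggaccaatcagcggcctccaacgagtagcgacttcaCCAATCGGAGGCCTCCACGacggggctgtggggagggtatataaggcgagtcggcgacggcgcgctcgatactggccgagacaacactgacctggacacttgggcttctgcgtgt
The matches began 156 bases before the start in Derl3, 126 in Creld2, 105 in Dnajc3, 212 and 107 in Hsp90b1, 44 in Syvn1 and 65 in Hspa5. Hsp90b1 was the member shown with a match on each strand. A match describes letters only, and both called and uncalled members of the list held one. The planned description of CpG content and TATAAA over all called genes was void, since a window was matched for only 75.5% of the genes called higher, 74.4% of those called lower and 70.6% of those tested outside the immunoglobulin loci.

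The immunoglobulin loci themselves took a larger part of the RNA in KO, 9.37% and 8.61% of counts against 3.69% and 3.47% in WT. Of 228 tested genes there, 106 rose and 26 fell. In the heavy chain locus 55 of 120 rose and 13 fell, in the kappa locus 51 of 103 rose and 12 fell, and in the lambda locus 0 of 5 rose and 1 fell. Ighg2b, a constant region of class-switched IgG, stood at 1746 and 1564 CPM in WT and 12458 and 10947 CPM in KO (log2 fold change 2.82, SE 0.11, adjusted p = 0.00101). Ighm, the constant region of IgM, rose by 2.1-fold (SE of the log2 value 0.07, adjusted p = 0.00403). Variable segments are near copies of each other, so counts of single segments are uncertain.

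Genes of earlier B cells were read next. Of 23 tested B lineage genes, 7 rose and 1 fell, with a median log2 fold change of 0.40. Pou2af1, a coactivator of immunoglobulin transcription, stood at 186 and 202 CPM in WT and 334 and 353 CPM in KO (log2 fold change 0.83, SE 0.08, adjusted p = 0.00922). The adaptor gene Blnk, the receptor chain gene Cd79a and the surrogate light chain gene Igll1 rose by 1.64, 1.42 and 1.98-fold (adjusted p = 0.0226, 0.0237 and 0.0206). Fcer2a, the IgE receptor CD23 of mature B cells, fell by 1.1 on the log2 scale (SE 0.13, adjusted p = 0.0144). The transcription factors of B cell identity did not pass: Ebf1 stood at 0.40 (SE 0.13, adjusted p = 0.142) and Pax5 at 0.23 (SE 0.08, adjusted p = 0.147).

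Some markers of other mature lineages were higher in the same libraries. Of 24 tested erythroid genes, 11 rose and 0 fell, with a median log2 fold change of 0.59 (4 or 6 without KO replicate 1 or 2, 0 without either WT replicate), and the summed level was 1441 and 1327 CPM in WT against 2113 and 1949 CPM in KO. Klf1, the master regulator of red cell genes, stood at 13.2 and 11.5 CPM in WT and 27.9 and 25.6 CPM in KO (log2 fold change 1.11, SE 0.12, adjusted p = 0.0127). Rhag and Ank1, of the red cell membrane and its skeleton, had log2 fold changes of 1.56 (SE 0.10, adjusted p = 0.00348) and 1.24 (SE 0.10, adjusted p = 0.00727). The iron uptake receptor gene Tfrc rose by 1.39-fold (SE of the log2 value 0.08, adjusted p = 0.0329).

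Granule genes of early myeloid cells rose in part. Of 20 tested genes, 8 rose and 0 fell, with a median log2 fold change of 0.19. The summed level was 1817 and 1791 CPM in WT against 2801 and 2795 CPM in KO. The other members went both ways, since 8 of the 20 leaned lower, 2 of them at an unadjusted p under 0.05. The lowest log2 fold change was -1.37, and edgeR's likelihood ratio test called 8 higher and 1 lower. Elane, neutrophil elastase, stood at 109 and 100.3 CPM in WT and 358 and 350.3 CPM in KO, a rise of 3.39-fold (log2 fold change 1.76, SE 0.07, adjusted p = 0.00128). Mpo, myeloperoxidase, stood at 632 and 646 CPM in WT and 1193 and 1239 CPM in KO (log2 fold change 0.93, SE 0.07, adjusted p = 0.00526). Cebpe, which drives later granule genes, rose from 2.04 and 1.62 CPM to 7.7 and 7.82 CPM (adjusted p = 0.0104).

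Lists of still other cell types were called mostly higher, at low levels. Of 12 tested eosinophil, basophil and mast cell genes 7 rose and 0 fell, of 15 macrophage and dendritic cell genes 7 rose and 0 fell, of 13 NK and cytotoxic genes 6 rose and 0 fell, and of 17 T lineage genes 7 rose and 1 fell. These lists are not separate from those above. Mcpt8, Prss34, Fcer1a, Cpa3 and Ms4a2 are in both the eosinophil, basophil and mast cell list and the early myeloid list. Nkg7 is in the NK and early myeloid lists, and Cd28 in the T lineage and antibody-secreting lists. For the eosinophil, basophil and mast cell list the summed level was 190.3 and 187 CPM in WT and 334 and 328 CPM in KO. For macrophage and dendritic cells it was 326 and 354 CPM against 439 and 458 CPM, for NK cells 161 and 166 CPM against 186 and 184 CPM, and for T cells 150.3 and 151 CPM against 208 and 213 CPM. Prg2, the major basic protein of eosinophils, stood at 34.5 and 31 CPM in WT and 81.6 and 74.3 CPM in KO, and Siglech, a marker of plasmacytoid dendritic cells, at 28.3 and 29.2 CPM against 70.2 and 72.5 CPM. Of defining T cell genes, Cd8a had 0 counts in both WT libraries and 23 over both KO libraries, at least 7.78-fold higher if the floor for the group is set at 3 counts. The T cell receptor constant gene Trac had 4 and 2 counts in WT and 35 and 22 in KO. Of 12 tested genes of mature neutrophils and monocytes, 3 rose and 1 fell. Some granule genes of mature neutrophils were below the filter, and those given here went both ways. Ltf had 0 counts in both WT libraries and 8 and 20 in KO, Camp 9 in each WT library and 1 in each KO library, and Mmp8 7 and 6 counts in WT and 2 and 1 in KO. A marker was called because it differed by genotype, so moving with genotype is part of the call. Leaning lower were 4 of the 12 eosinophil, basophil and mast cell genes and 2 of the 15 macrophage and dendritic cell genes. So were 2 of the 13 NK and cytotoxic genes and 1 of the 17 T lineage genes. The part of these markers in the other results was not tested.

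**Figure D3:**
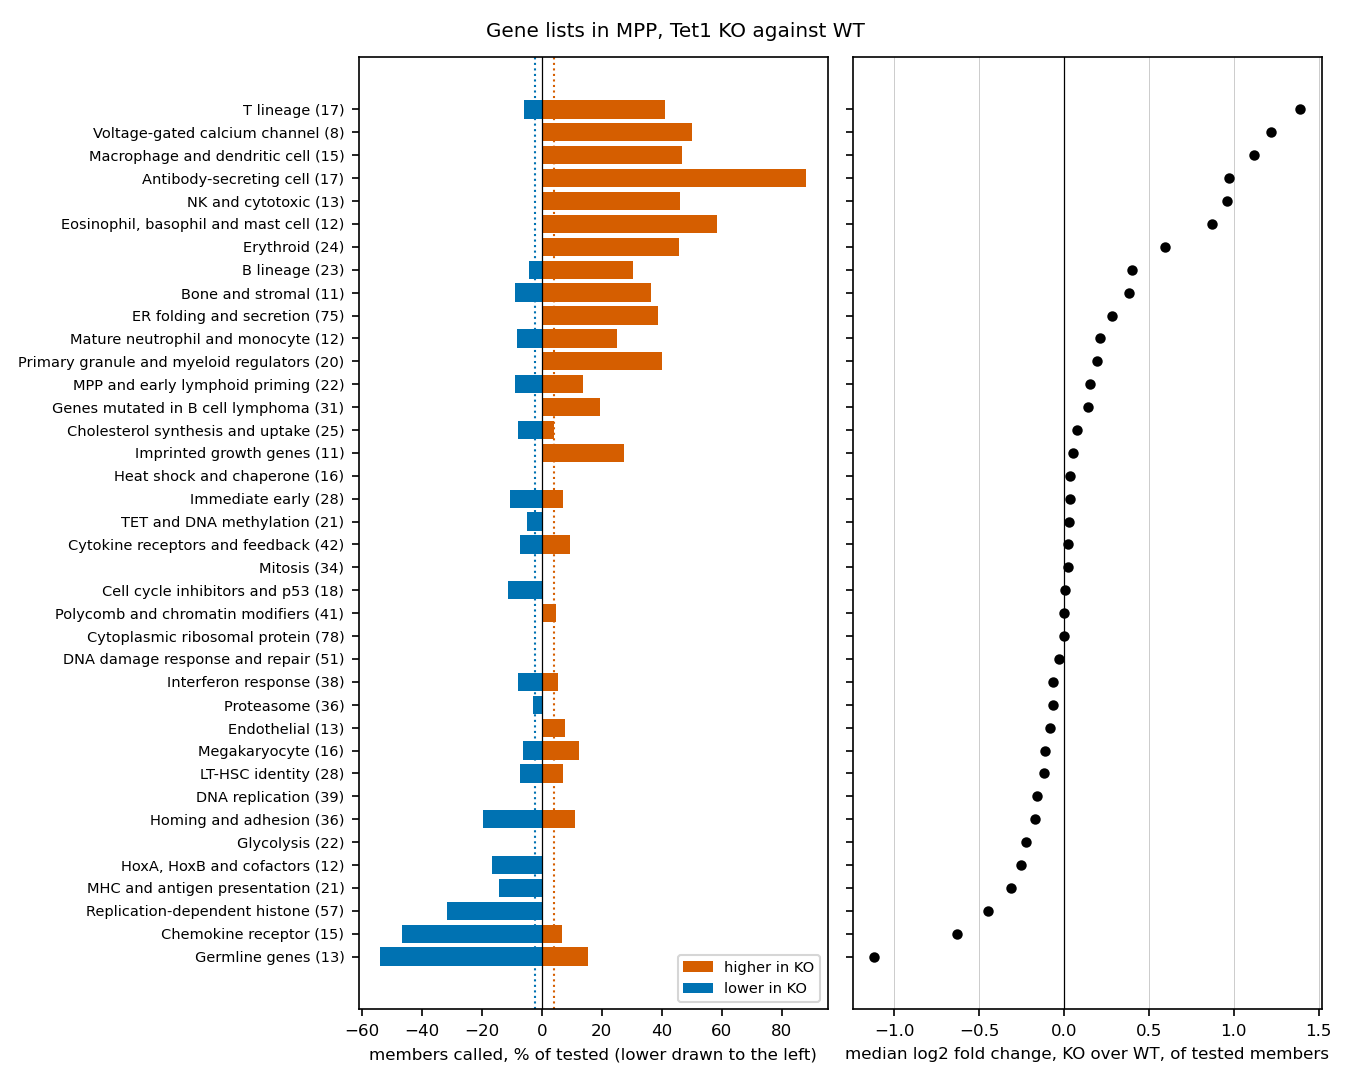
Left, the share of tested members called higher (orange, right of 0) or lower (blue, left of 0) in KO for each gene list except the sex-linked genes and the Xlr family, with the number tested in parentheses and dotted lines at the shares of all genes outside the immunoglobulin loci (4.1% and 2.32%). Right, the median log2 fold change of the tested members. The antibody-secreting list has the largest share of members called higher among the lists shown. Germline, chemokine receptor and histone genes have the lowest medians of the lists shown. The germline list still holds Xlr genes, and with X and Y genes removed its 6 tested members had a median of 1.27.

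The labelled cell type was checked against progenitor markers. Kit, the stem cell factor receptor, stood at 426 and 429.7 CPM in WT and 409.9 and 405 CPM in KO, and Flt3, the receptor of lymphoid-primed progenitors, at 357 and 334 CPM against 377 and 343 CPM. Neither passed the test (adjusted p = 0.539 and 0.719), and the groups overlapped for Flt3. Cd34, a progenitor surface antigen, fell from 300.3 and 292 CPM to 223 and 225 CPM (log2 fold change -0.40, SE 0.06, adjusted p = 0.0301). Of 22 tested genes of MPP and early lymphoid priming, 3 rose (Il7r, Ikzf3 and Arpp21) and 2 fell (Cd34 and Ccr7). Il7r, the interleukin-7 receptor of lymphoid progenitors, rose by 2.15-fold from 23.7 and 24.3 CPM to 47 and 56 CPM (log2 fold change 1.1, SE 0.11, adjusted p = 0.0116). Of 28 tested LT-HSC identity genes, 2 rose, Mycn among them, and 2 fell, Slamf1 and Gata2. Slamf1, the stem cell marker CD150, was low throughout, at 9.38 and 9.09 CPM in WT and 3.77 and 4.16 CPM in KO (log2 fold change -1.22, SE 0.16, adjusted p = 0.0189). The cell cycle regulator Mycn rose by 2.06-fold (SE of the log2 value 0.12, adjusted p = 0.0155).

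Among the falls, chemokine receptors stood out in a list of 17 genes put together after the values had been seen. Of 15 tested, 7 fell and 1 rose, with a median log2 fold change of -0.63 (2 lower and 0 higher without either KO replicate, 0 without either WT replicate). Ccr2, which draws monocytes and some progenitors towards inflamed tissue, stood at 156 and 179 CPM in WT and 44.8 and 52.5 CPM in KO, a fall of 3.44-fold (log2 fold change -1.78, SE 0.12, adjusted p = 0.00403). Ccr1, a receptor for inflammatory chemokines, stood at 13.1 and 15.7 CPM in WT and 2.05 and 2.83 CPM in KO (log2 fold change -2.55, SE 0.21, adjusted p = 0.00727). Both genes lie on chromosome 9, between 123876959 and 124028296 on mm9. The lymphocyte homing receptors Ccr7 and Cxcr5 fell by 0.53 (SE 0.08, adjusted p = 0.0272) and 0.63 (SE 0.11, adjusted p = 0.0409), and the neutrophil receptor Cxcr2 by 1.45 (SE 0.26, adjusted p = 0.0409). DESeq2 did not call Cxcr5 (adjusted p = 0.0889) or Cxcr2 (adjusted p = 0.059), and it called 5 of the list lower, against 4 without a filter. Cxcr1 also fell, to 1 count in each KO library from 26 and 20 in WT. Cxcr3, a receptor of activated T cells on the X chromosome, was the one that rose (log2 fold change 1.39, SE 0.20, adjusted p = 0.0253). Cxcr4, which holds progenitors in the marrow, stood at 317 and 332 CPM in WT and 309.7 and 339 CPM in KO, and the groups overlapped (adjusted p = 0.995).

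Other surface genes of homing and adhesion went both ways, with 4 higher and 7 lower among 36 tested, a count that includes 6 of the chemokine receptors called. Itga6, an integrin chain that binds laminin, fell by 1.51-fold (log2 fold change -0.59, SE 0.06, adjusted p = 0.0125). Itgb3, an integrin chain of platelets, rose by 1.31-fold (log2 fold change 0.39, SE 0.07, adjusted p = 0.0407, and 0.11 with DESeq2). Itgb3 also belongs to a list of 16 tested megakaryocyte genes, which had 2 rises and 1 fall, that of the platelet selectin gene Selp (log2 fold change -0.82, SE 0.09, adjusted p = 0.0125). Of 42 tested cytokine receptors and feedback genes, 4 rose and 3 fell. Tgfbr3, a co-receptor for TGF-beta, stood at 52.9 CPM in both WT libraries and 22 and 24.2 CPM in KO (log2 fold change -1.20, SE 0.09, adjusted p = 0.00526), and the feedback inhibitors Socs2 and Socs3 went opposite ways, at 1.08 (SE 0.16, adjusted p = 0.0261) and -0.51 (SE 0.07, adjusted p = 0.025).

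Replication-dependent histone genes were lower in KO in part. Of 57 tested, 18 fell and 0 rose, and 56 leaned lower, with a median log2 fold change of -0.45. Hist1h2bb stood at 29.1 and 30.8 CPM in WT and 17 and 18.2 CPM in KO (log2 fold change -0.76, SE 0.10, adjusted p = 0.019), and Hist1h3e at 124 and 126 CPM against 89.6 and 85.8 CPM (log2 fold change -0.51, SE 0.07, adjusted p = 0.0198). Hist4h4, a further H4 gene, fell by 3.31-fold from 9.38 and 9.5 CPM to 3.11 and 2.58 CPM. These mRNAs normally lack a poly(A) tail and are made in S phase, and the genes are near copies of each other, so their poly(A) counts are uncertain. With either KO library left out, 1 or 0 of them passed. Of 39 tested DNA replication genes 0 were called by edgeR's quasi-likelihood test or by DESeq2 (2 higher and 10 lower at an unadjusted p under 0.05), and 2 were higher by edgeR's likelihood ratio test. Of 34 mitosis genes 0 were called by any of these 3 tests (1 higher and 1 lower unadjusted).

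Inhibitors of the cell cycle and p53 targets had 2 falls among 18. Cdkn1a, the inhibitor p21, stood at 219.5 and 224 CPM in WT and 142 and 153 CPM in KO (log2 fold change -0.59, SE 0.07, adjusted p = 0.0157), and Pmaip1, the death factor Noxa, fell by 0.65 (SE 0.10, adjusted p = 0.0313). DNA repair genes had 0 calls among 51 by the quasi-likelihood test or DESeq2 (2 higher and 7 lower unadjusted), and 1 higher and 3 lower by the likelihood ratio test. Of 21 antigen presentation genes 3 fell and 0 rose, all 3 of MHC class II (H2-Aa, H2-DMa and H2-Eb1, at -0.41, -0.49 and -0.47), and 19 leaned lower. Interferon response genes went both ways, with 2 higher and 3 lower among 38. Xaf1, an interferon-induced death factor, rose by 3.26-fold (log2 fold change 1.70, SE 0.10, adjusted p = 0.00288), while the GTPase gene Iigp1 fell by 2.21-fold (log2 fold change -1.14, SE 0.15, adjusted p = 0.0189). The sterol exporters Abca1 and Abcg1 both fell, by 0.81 (SE 0.07, adjusted p = 0.00925) and 0.74 (SE 0.07, adjusted p = 0.00952).

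Genes mutated in B cell lymphoma had 6 rises and 0 falls among 31 by the quasi-likelihood test, and 10 of the 31 leaned lower. DESeq2 called 6 higher and 2 lower, and edgeR's likelihood ratio test 8 higher and 2 lower. The 6 rises included Prdm1, Irf4 and Cd79a, already described, Fas, and the kinase gene Sgk1 (adjusted p = 0.0291, and 0.0563 with DESeq2). Fas, the death receptor, was low, at 0.816 and 1.22 CPM in WT and 4.51 and 5.57 CPM in KO (log2 fold change 2.30, SE 0.30, adjusted p = 0.0198). Polycomb and chromatin modifier genes had 2 rises and 0 falls among 41. Cbx7, a subunit of Polycomb repressive complex 1, rose by 1.69-fold (log2 fold change 0.76, SE 0.10, adjusted p = 0.0218), and the X-linked demethylase gene Kdm6a by 1.44-fold (log2 fold change 0.53, SE 0.08, adjusted p = 0.029). Imprinted genes had 3 rises among 11 tested. Igf2r and the antisense transcript Airn overlap and stood at 1.07 and 1.12, and the growth inhibitor Grb10 at 0.56 (adjusted p = 0.0417, and 0.138 with DESeq2). Ribosomal protein genes had 0 calls among 78 by the quasi-likelihood test or DESeq2 (0 higher and 1 lower unadjusted) and 1 lower by the likelihood ratio test, and their summed level followed the replicate number rather than genotype, at 9131 and 8935 CPM in replicate 1 of WT and KO and 11900 and 11640 CPM in replicate 2. Glycolysis had 0 calls among 22 by the quasi-likelihood test or DESeq2 (0 higher and 7 lower unadjusted) and 1 lower by the likelihood ratio test. Heat shock genes had 0 among 16 by the quasi-likelihood test (3 higher and 1 lower unadjusted) and 2 higher by DESeq2 and by the likelihood ratio test. In the remaining lists, HoxA, HoxB and cofactor genes had 0 rises and 2 falls among 12 (16.7% called), and proteasome genes 0 and 1 among 36 (2.78%). Mature neutrophil and monocyte genes had 3 and 1 among 12 (33.3%), and bone and stromal genes 4 and 1 among 11 (45.5%). Endothelial genes had 1 and 0 among 13 (7.69%), and cholesterol genes 1 and 2 among 25 (12%). Over all genes tested, 7.2% were called.

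The largest changes outside the immunoglobulin loci were in genes of many kinds. Cd14, the co-receptor for bacterial lipopolysaccharide on monocytes, stood at 2.86 and 2.84 CPM in WT and 30.5 and 30.3 CPM in KO, a rise of 10.6-fold (log2 fold change 3.41, SE 0.12, adjusted p = 0.000828). Ncald, a neuronal calcium sensor, rose from 1.96 and 2.03 CPM to 9.1 and 11.1 CPM (log2 fold change 2.33, SE 0.20, adjusted p = 0.00749). Pgr, the progesterone receptor, rose from 6.44 and 8.2 CPM to 31.5 and 34.6 CPM (log2 fold change 2.17, SE 0.15, adjusted p = 0.00434). Non-overlap between genotypes was a condition for entry among these largest changes, so it adds nothing for these 3. Of all tested genes, 27.7% had both KO libraries above both WT libraries. The secreted protein gene Scube3, the transcription factor gene Tfcp2l1, the elongation factor gene Eaf2, the serine protease gene Hpn and the fatty alcohol enzyme gene Far2 rose by 4.49, 4.37, 4.32, 4.32 and 4.26-fold. Cebpe, the phosphatase gene Dusp14, the TGF-beta binding protein gene Ltbp1, the lipopolysaccharide hydrolase gene Aoah, the sphingomyelin synthase gene Sgms2 and the guanine deaminase gene Gda were also among the 15 largest rises, at 4.22 to 3.44-fold.

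**Figure D4:**
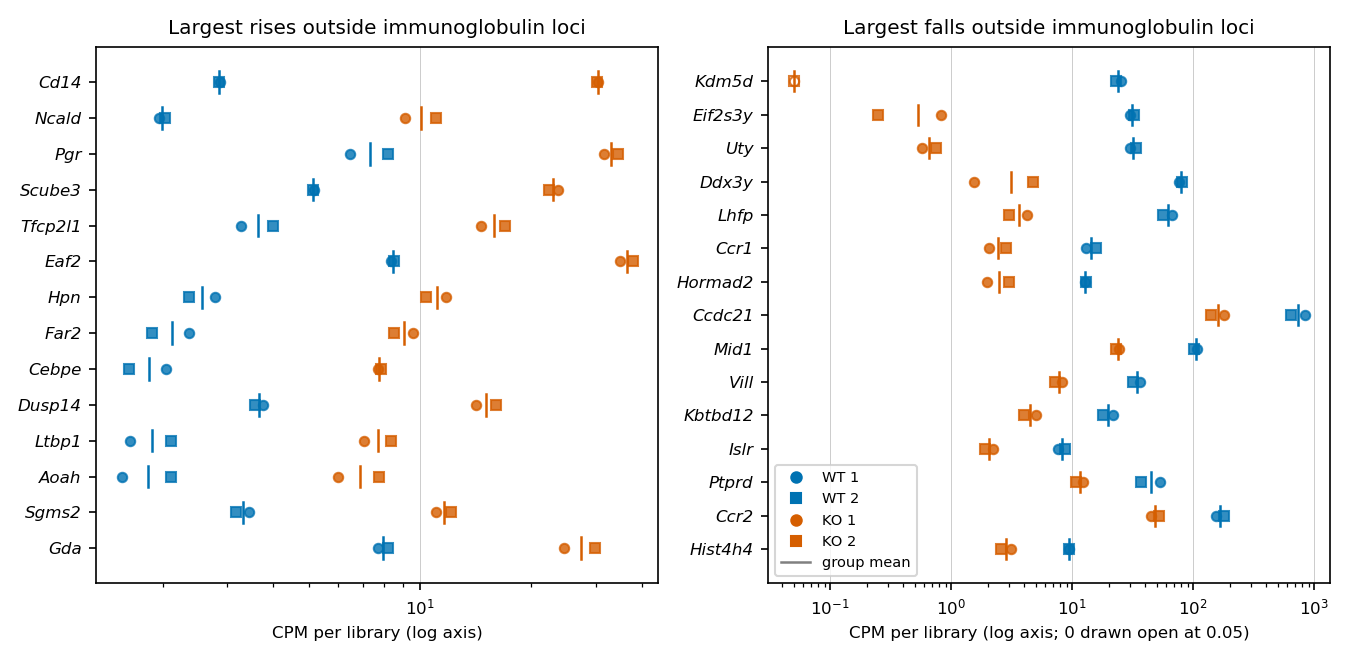
CPM per library (log axis) for 14 of the 15 largest rises (left) and the 15 largest falls (right) among called genes outside the immunoglobulin loci that have a descriptive symbol and a mean normalized count of 50 or more. Blue marks WT and orange KO, circles replicate 1 and squares replicate 2, ticks the group means, and open symbols at 0.05 stand for 0. The rises start from 1.55 to 8.52 CPM in WT, and the falls reach from the Y-linked genes at the top to Hist4h4. Only genes without overlap between the genotypes were eligible for either panel.

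Of the 15 largest falls, 4 were the Y-linked genes. Lhfp, a tetraspan membrane protein gene, stood at 67 and 56.8 CPM in WT and 4.26 and 3 CPM in KO, a fall of 17-fold (log2 fold change -4.09, SE 0.18, adjusted p = 0.00139). Ccdc21, a centrosomal protein gene, was the most abundant, at 835 and 649 CPM in WT and 178 and 139.9 CPM in KO (log2 fold change -2.22, SE 0.18, adjusted p = 0.00648). Mid1, a ubiquitin ligase gene at the edge of the X chromosome, stood at 108 and 102 CPM against 24.6 and 23 CPM (log2 fold change -2.15, SE 0.08, adjusted p = 0.00101). The meiotic gene Hormad2, the actin-binding gene Vill, Kbtbd12, the adhesion gene Islr and the phosphatase gene Ptprd fell by 5.17, 4.4, 4.4, 3.95 and 3.9-fold, beside Ccr1, Ccr2 and Hist4h4. A pair of transcripts without a descriptive symbol was singled out after the values were seen. 4833403I15Rik had 3 and 4 counts in WT and 410 and 456 in KO (log2 fold change 6.92, SE 0.21, adjusted p = 0.00077), and BC060267 had 1910 and 1409 counts in WT and 54 and 50 in KO (log2 fold change -4.97, SE 0.21, adjusted p = 0.00128).

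The region around Tet1 was described separately, since a targeted allele can carry flanking DNA. Within 10 Mb of Tet1, 91 other genes were tested, 7 were higher and 2 lower (9.89% called, against 6.53% over chromosome 10). The called genes with the smallest p, Tet1 itself left out, were Adamts14, Chst3, Gm5424, Rhobtb1 and Prf1. Chst3, a chondroitin sulfotransferase gene, stood at 39.8 and 41.2 CPM in WT and 66.8 and 70 CPM in KO (log2 fold change 0.75, SE 0.08, adjusted p = 0.011). On the X chromosome, 13 of 719 tested genes were higher and 17 lower (4.17% called). The lower ones included all 8 tested genes of the lymphocyte-regulated Xlr family, near copies of each other whose counts can be split by mapping. DESeq2 called 5 of the 8, as did the fit without a filter, and 4 or 3 were called without KO replicate 1 or 2 and 0 without either WT replicate. Xlr had 30 and 35 counts in WT and 0 in both KO libraries, at least 21.4-fold lower, and Xlr4a had 196 and 180 counts in WT against 78 and 65 in KO (log2 fold change -1.37, SE 0.15, adjusted p = 0.0124). Of 13 tested germline genes 2 rose and 7 fell, and the 7 were Xlr genes. Kdm5c, an X-linked histone demethylase gene that escapes X inactivation, stood at 187 and 173 CPM in WT and 242 and 233 CPM in KO (log2 fold change 0.40, SE 0.07, adjusted p = 0.0428).

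The KO effect in MPP was then compared with that in LT-HSC through the interaction of population and genotype over all 8 libraries. The LT-HSC libraries were made from fewer cells than the MPP libraries. Their replicates varied more (biological coefficient of variation 0.185 against 0.107). Cell number and population cannot be told apart in this comparison. The interaction was called for 3663 of 16551 genes (22.1%). Among the 14632 of these genes tested in MPP, the MPP effect lay above the LT-HSC effect for 1376 (9.4%) and below it for 1611 (11%). In LT-HSC itself 22.5% of all tested genes were called higher and 10.9% lower in KO. The antibody-secreting list had 10 of 17 genes with an MPP effect above that in LT-HSC and 0 below, and the ER list 24 of 75 above and 0 below. Xbp1 rose by 0.94 in MPP and fell by 0.64 in LT-HSC (interaction 1.59, adjusted p = 0.00189). Sdc1 stood at 1.24 in MPP and -2.92 in LT-HSC (interaction 4.2, adjusted p = 0.00421). Creld2 stood at 1.02 and -0.54 (interaction 1.56, adjusted p = 0.00503). The regulators Prdm1 and Ell2 were higher in KO in both populations, at 1.71 and 2.02 and at 1.24 and 1.02, and their interactions did not pass (adjusted p = 0.673 and 0.458). The erythroid list went the other way. All 24 tested genes were called higher in LT-HSC KO, where the median was 2.73 on the log2 scale against 0.59 in MPP, and the interaction was called for 22 of 24, each with the smaller effect in MPP. Klf1 stood at 3.73 in LT-HSC and 1.11 in MPP (interaction -2.61, adjusted p = 0.00147). Of 28 immediate early genes, 25 were lower in LT-HSC KO, while in MPP 2 rose and 3 fell, with the interaction called for 22. Fos, an AP-1 subunit gene, rose by 1.4-fold in MPP (log2 fold change 0.48, SE 0.09, adjusted p = 0.0418) and fell by 0.60 on the log2 scale in LT-HSC (interaction 1.08, adjusted p = 0.00387).

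**Figure D5:**
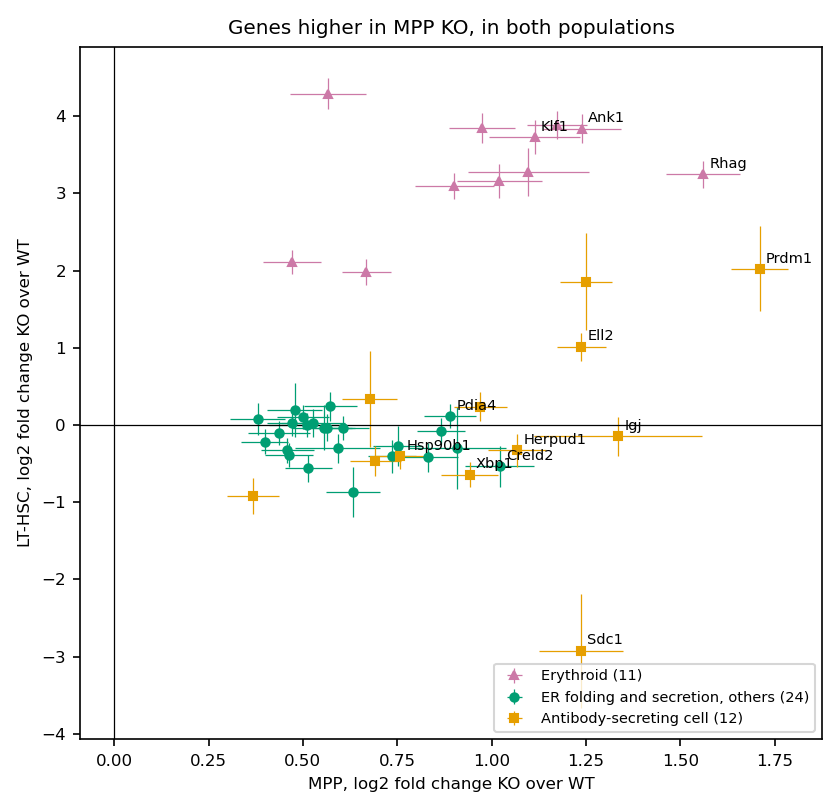
Log2 fold change of KO over WT in MPP (x axis) and in LT-HSC (y axis) for genes called higher in MPP KO that were tested in both populations, with bars of 1 SE. Erythroid genes (triangles) lie far above 0 on the LT-HSC axis, ER genes (circles) lie between -0.87 and 0.24 there, and antibody-secreting genes (squares) spread from Sdc1 at -2.92 to Prdm1 at 2.02.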

How the data were processed

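RNA of sorted MPP was sequenced in 4 libraries, and LT-HSC in 4 more. The authors deposited raw counts per Ensembl gene, together with their own log2 fold change and log2 CPM, a likelihood ratio score and p-values for each gene; the authors' fold changes and scores were not used. The authors' deposited table held 1006 genes higher and 487 lower at a false discovery rate under 0.05, of which 503 and 212 were also called here. CASAVA, TopHat and build mm9 are named in the submitters' processing notes, while no source used here gives the counting program, its use of strand or the annotation. Reads in overlapping genes and near-identical copies can therefore be misassigned.

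Counts were filtered with edgeR's filterByExpr (14902 of 18904 genes kept), scaled by TMM and tested with edgeR 4.0.16 (quasi-likelihood F test, R 4.3.3, limma 3.58.1), with Benjamini-Hochberg adjustment over all tested genes and a threshold of 0.05. Unless another test, LT-HSC or the interaction is named beside it, an adjusted p comes from this test on the MPP libraries. CPM are on effective library sizes, and fold changes are KO over WT. The LT-HSC comparison used the interaction term of a fit on all 8 libraries. The test was also run on simulated counts with libraries drawn independently. Deviations shared by same-numbered libraries, described at the end, were not simulated, so that run does not cover them. DESeq2 1.42.0 and other alternatives are given at the end. Counts of the replicates differed by more than sampling noise (chi-square per degree of freedom 11.2 in WT and 14.2 in KO). Each library was counted as 1 sample. The excess spread does not show that replicates came from separate animals, and it may be technical. Log CPM correlated at 0.985 between replicates and at 0.958 to 0.970 between genotypes.

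Named genes were Tet1, Tet2 and Tet3, the 15 largest rises and falls (mean normalized count 50 or more), up to 6 called members of each list, up to 5 genes near Tet1 and up to 4 immunoglobulin genes, and defining members of a list. Others were named for their role after their values were seen. The largest rises and falls also needed a descriptive symbol and no overlap between the genotypes. Members and lists were chosen with earlier results of these data known. Some named genes are not reported here.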

Additional observations from a re-analysis of the deposited data

Results flagged for a closer look

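The KO effect differed between MPP and LT-HSC, by the interaction term of the fit on all 8 libraries (adjusted p under 0.05), for these genes named above or below. Values are the log2 effect in MPP minus that in LT-HSC. Higher and lower refer to this signed difference and not to the size of the change. A higher effect in MPP can be a larger rise or a smaller fall than in LT-HSC. Cdkn1a stood at -0.59 in MPP and -1.93 in LT-HSC, and Vill at -2.14 and -3.58. A lower effect can be a smaller rise or a larger fall, and BC060267 stood at -4.97 in MPP and -3.24 in LT-HSC. Some of these genes are at few counts in 1 population, where the size of the difference depends on the prior count. Kdm5d (-6.42) is at 0 counts in both MPP KO libraries.

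Among secretory genes the MPP effect was the higher one for Xbp1 (1.59), Sdc1 (4.2), Tnfrsf17 (3.35), Igj (1.48), Creb3l2 (0.74), Pim2 (1.24), Herpud1 (1.41), Edem1 (1.17), Syvn1 (0.90), Hsp90b1 (1.17), Hspa5 (0.77), Creld2 (1.56), Dnajc3 (1.08), Pdia4 (0.78) and Txndc5 (0.95), and also for Ighg2b (1.90) and the B cell coactivator gene Pou2af1 (1.66). The B cell identity genes went the other way, with Ebf1 at -1.59 and Pax5 at -0.99.

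Among genes of other lineages the MPP effect was the lower one for Klf1 (-2.61), Ank1 (-2.59), Rhag (-1.68), Tfrc (-1.64), Prg2 (-3.71), Siglech (-3.19), Arpp21 (-1.37) and Flt3 (-0.70). It was also lower for the chemokine receptors Ccr2 (-5.90) and Cxcr5 (-4.01) and for the calcium channel genes Cacna1e (-2.20), Cacna1h (-3.45) and Cacna1i (-2.96).

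Progenitor, signalling and growth genes with the higher effect in MPP were Mycn (1.73), Itga6 (0.48), Itgb3 (0.74), Itgb2 (2.67), Vim (0.68), Socs2 (1.70), Fos (1.08), Cdkn1a (1.35), Pmaip1 (1.02), Fas (3.37), Sgk1 (0.61), H2-DMa (0.49), H2-Eb1 (0.79), Cbx7 (0.80), Kdm5c (0.50) and Airn (1.53). Among the largest changes, Pgr (1.96), Gda (2.05) and Vill (1.45) had the higher effect in MPP, and Lhfp (-3.27), Ptprd (-3.98), Islr (-2.21), Kbtbd12 (-1.37), Mid1 (-0.96), BC060267 (-1.73), Dusp14 (-5.41), Ltbp1 (-1.49) and Ncald (-1.32) the lower one. Abca1 (-0.85), Iigp1 (-0.80) and Hist1h2bb (-1.05) were lower as well.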

How the results depend on the processing

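Over all genes, the 707 higher and 366 lower became 1269 and 798 with edgeR's likelihood ratio test, 397 and 178 without a filter on low counts, 352 and 148 with all 8 libraries in one fit, and 609 and 643 with library size alone. With the replicate number as a block they were 3536 and 3698. Outside the immunoglobulin loci the 601 higher and 340 lower became 1129 and 764, 312 and 159, 275 and 141, and 505 and 616 under the same settings, and 3365 and 3655 with the block. DESeq2, RLE size factors, a stricter filter, robust dispersion and, as an alternative added after seeing the data, removal of X and Y genes kept both counts within 1.5 times. Leaving out 1 library gave 0 to 213 higher and 0 to 55 lower over all genes, and 0 to 135 and 0 to 41 outside the immunoglobulin loci; a lone library was assumed to vary like the other group. The interaction's 3663 genes became 7948 with the replicate block and 1132 to 4237 with 1 library left out (2141 without LT-HSC KO replicate 1). The cause of these shifts was not tested. No called gene among the 192 named changed sign under any setting. Of them, 180 passed with DESeq2, 152 without a filter, 192 with the replicate block, 77 and 70 without KO replicate 1 and 2, and 0 without either WT replicate. Tet3, not called, was -0.000673 with library size alone. Same-numbered libraries deviated together (r = 0.679 across genes), but with 2 pairs and no label that ties them, the pairing is not established. Depth limits genes under about 1 CPM, where few counts lie behind a value.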

Other observations

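Voltage-gated calcium channel genes, which encode pore subunits known from nerve and muscle, were read as a list put together after the values had been seen. Of 8 tested, 4 rose and 0 fell, with a median log2 fold change of 1.22. Cacna1i leaned the other way, at 14.1 and 11.9 CPM in WT and 7.37 and 8.74 CPM in KO (log2 fold change -0.69, SE 0.16, adjusted p = 0.071), and edgeR's likelihood ratio test called 1 member lower. Without KO replicate 1 or 2, 3 were called higher, and without either WT replicate 0 were. Cacna1h, a T-type channel, stood at 24.5 and 22.8 CPM in WT and 78.4 and 69.8 CPM in KO (log2 fold change 1.65, SE 0.10, adjusted p = 0.00304). Cacna1e stood at 17 and 17.9 CPM in WT and 50.0 and 55.1 CPM in KO (log2 fold change 1.59, SE 0.10, adjusted p = 0.0032). Cacna1s and Cacna1d were lower in level, with log2 fold changes of 1.31 (SE 0.12, adjusted p = 0.00937) and 1.13 (SE 0.14, adjusted p = 0.0193). The genotypes did not overlap for any of the 4 called, and all 4 were also called higher in LT-HSC KO, by 5.06, 3.78, 3.55 and 2.23 on the log2 scale. Cacna1d overlaps 2 other gene models.

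The bone and stromal list held a further pair. Alpl, alkaline phosphatase, stood at 5.47 and 5.36 CPM in WT and 18.5 and 17.9 CPM in KO (log2 fold change 1.75, SE 0.12, adjusted p = 0.00444). Vim, an intermediate filament gene, stood at 735 and 733 CPM in WT and 564 and 541 CPM in KO (log2 fold change -0.41, SE 0.07, adjusted p = 0.0326). Itgb2, the common chain of leukocyte integrins, stood at 55.3 and 53.6 CPM in WT and 75.7 and 74.0 CPM in KO (log2 fold change 0.46, SE 0.07, adjusted p = 0.0286), while in LT-HSC its log2 fold change was -2.21 (SE 0.20, adjusted p = 0.000251).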
